A study of Mus musculus with 12 samples.

Results

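Ras proteins are small GTPases that switch between a GDP-bound resting form and a GTP-bound active form, and they pass signals from growth factor receptors to the kinases that drive proliferation. The transcripts of 5 Ras genes (Nras, Hras, Rras, Rras2 and Mras) and of 4 genes whose proteins speed up GTP hydrolysis on Ras (Nf1, Rasa1, Rasa2 and Rasa3) were followed here by name, 9 of the 27998 gene columns of the count tables. GTPase-activating proteins such as neurofibromin return Ras to its resting form, and the replacement of a glycine by aspartate in the nucleotide-binding loop, as in the NRas G12D allele, makes Ras insensitive to them. Activating NRAS changes and loss of NF1 are both known from myeloid neoplasms, in which Ras signaling stays on in blood-forming progenitors.

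The study profiled single c-Kit+ bone marrow cells, a fraction that contains hematopoietic stem and progenitor cells (HSPCs), by 10x Genomics 3′ single-cell RNA-seq, and asked how activated NRas and loss of the histone methyltransferase Ezh2 change these cells, alone and together. All mice were C57BL/6, were labelled as 8 to 12 weeks of age and received pIpC, a double-stranded RNA that switches on the Mx1 promoter and thereby the Cre recombinase under it. WT mice were negative for Mx1-Cre, E2-KO mice carried Mx1-Cre and both floxed Ezh2 alleles, G12D mice carried Mx1-Cre and 1 inducible NRas G12D allele, and G12D/E2-KO mice carried all of these. The recombinase thus differed between WT and every mutant, it is active in many blood and non-blood cells, and each of the 4 genotypes was sampled once at T1 (2 weeks after pIpC), once at T2 (2 months) and once at T3 (4 months). At T3 the mice were past the labelled 8 to 12 weeks, so that label is not the age at sampling of all libraries.

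The 12 libraries held 2350 to 3767 usable cells and 12.6 to 23.6 M UMIs each (M, 10 to the power of 6; UMIs are molecular barcodes that let each captured transcript be counted once). In all, 32701 cells were used. The G12D T1 table shared 2896 cells with the G12D/E2-KO T1 table, 51.3% and 95.1% of their cells, and these were counted in the latter alone (1494 were equal in every gene, and both tables list all 2896 in 1 common order). The labels do not say to which library they belong. Results with the tables as deposited are given where a call changed. In that setting the shared cells count in both libraries, which by construction draws G12D T1 toward G12D/E2-KO T1. Ezh2, the gene deleted in 2 of the genotypes, was at 20.7 to 34.6 CPM in the 6 E2-KO and G12D/E2-KO libraries and at 81.7 to 133 CPM in the other 6, where CPM is the UMIs of a gene per M UMIs of the same library or class. The G12D/E2-KO T1 library, 95.1% of it shared cells, was at 20.7 CPM of Ezh2, and G12D T1 without the shared cells was at 86.3 CPM. Xist, the RNA of the inactive X chromosome, was abundant in the T3 libraries of WT, E2-KO and G12D and near 0 in the other 9. Each cell was placed into 1 of 13 classes by its markers, and 88.9% of cells passed the limits. In 7 classes each library had 20 or more cells. They comprise the immature cells, stem cells with multipotent progenitors (HSC/MPP) and megakaryocyte-erythroid progenitors (MEP), 3 myeloid classes, the GMPs plus early granulocytes (GMP/early GN), promonocytes (ProMo) and late granulocytes (Late GN), and early (EryP/early Ery) and late erythroid cells (Late Ery).

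The 3′ UMI counts do not read the mutated position of Nras, so mutant and normal Nras transcripts were counted together. In GENCODE vM21 (mm10), Nras spans chr3:103058285-103067914 on the plus strand, Hras chr7:141189105-141194005 on the minus strand, Rras chr7:45017961-45021647 on the plus strand, Rras2 chr7:114046782-114117781 on the minus strand and Mras chr9:99385420-99437381 on the minus strand. Nf1 spans chr11:79339693-79581612 on the plus strand, Rasa1 chr13:85214780-85289130, Rasa2 chr9:96539300-96631617 and Rasa3 chr8:13566948-13677603, all on the minus strand. Omg, Evi2, Evi2a and Evi2b lie within Nf1, Ccnh overlaps Rasa1 and the antisense transcript Gm45615 overlaps Rras2, all on the opposite strand. The rRNA gene n-R5s87 overlaps Rasa2 on the same strand, and the pseudogene Gm19280 on the opposite strand. A read placed on the wrong gene of such a pair would count for it.

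Over all c-Kit+ cells none of the 9 genes passed the test between genotypes (edgeR quasi-likelihood test, genotype and time point as factors, adjusted over 13143 genes, threshold 0.05). In these sums over all cells, fewer cells of a type and less RNA per cell cannot be told apart. The share of all genes that passed was 1.65% for E2-KO against WT, 0.107% for G12D against WT, 5.71% for G12D/E2-KO against WT, 1.42% for G12D/E2-KO against G12D and 0.0913% for G12D/E2-KO against E2-KO. These shares moved with the setting, from 186 genes to 3 with the tables as deposited for G12D/E2-KO against G12D and from 12 to as many as 670 (DESeq2) for G12D/E2-KO against E2-KO. At an unadjusted p under 0.05 there were 5 of 27 member comparisons of a mutant with WT and 5 of 18 of G12D/E2-KO with a single mutant, against 18.1% and 17.0% of all gene tests. DESeq2 called 3 and 2 of these, against 4.48% and 3.71% of all gene tests with that tool. The interaction of both mutations, which asks whether the double mutant departs from the sum of the single changes, called 0 of 9 members against 0.0913% of all genes, with 0 at an unadjusted p under 0.05 (3.73% of all genes) and 0 by DESeq2 (0.368%). T2 and T3 against T1 likewise called 0 of 9 members each, with 0 at an unadjusted p under 0.05 (8.86% of all gene tests) and 0 by DESeq2 (0.0858%), against 0.0% of all genes at either time (edgeR). These time tests take the 4 genotypes together, so a change over time in 1 genotype alone was not tested. Xist was abundant at T3 alone, in all genotypes but G12D/E2-KO, so T3 against T1 cannot be told apart from a difference in sex.

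**Figure D1:**
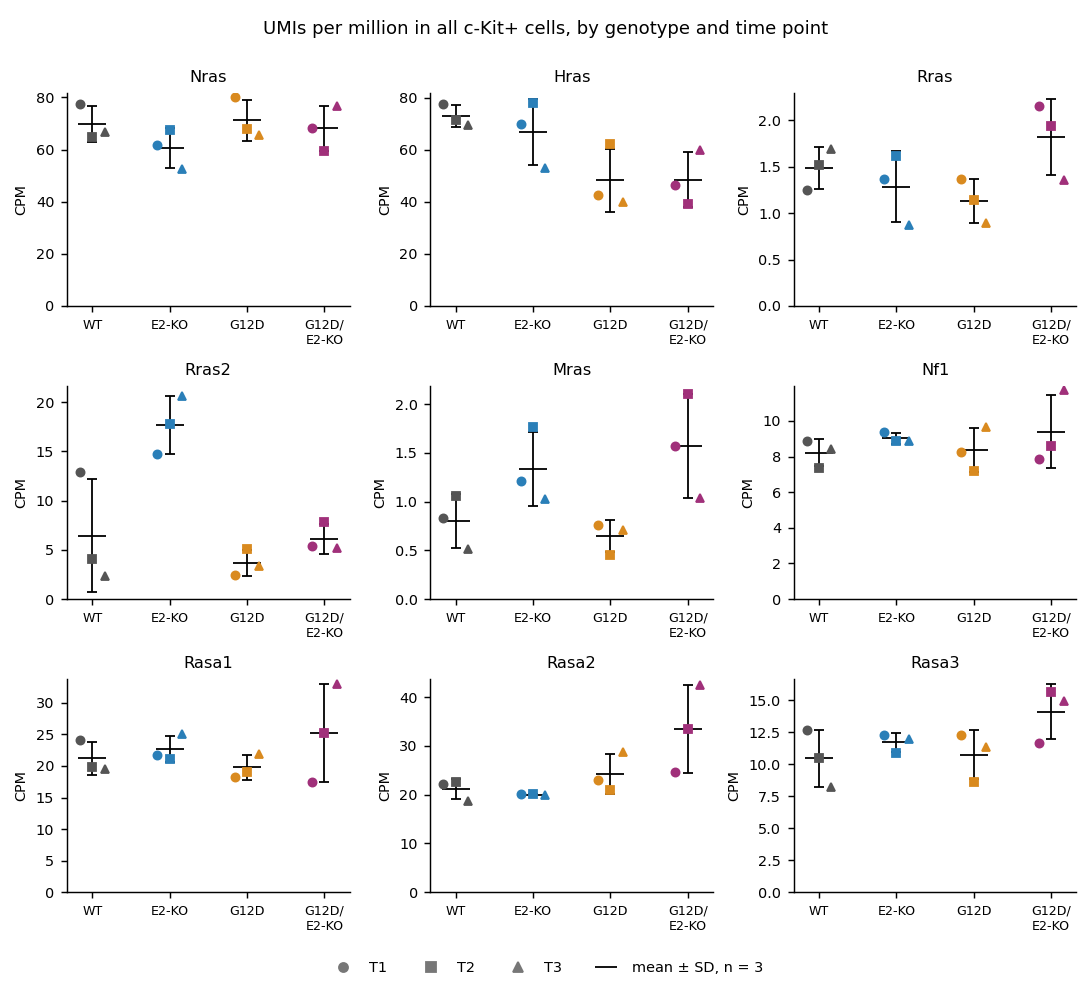
UMIs per M (CPM) of the 9 genes in all cells of each library, by genotype (horizontal axis) and time point (marker shape), with the mean and SD of 3 libraries. The 4 genotypes overlap for Nras, Hras is between 39.2 and 62.1 CPM in the 6 G12D and G12D/E2-KO libraries, and Rras2 is at 14.7 to 20.6 CPM in E2-KO.

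Nras, the gene that carries the mutated allele, was at 77.5, 64.9 and 66.8 CPM in WT at T1, T2 and T3, and at 80.3, 67.9 and 65.7 CPM in G12D. The E2-KO libraries had 61.6, 67.6 and 52.5 CPM and the G12D/E2-KO libraries 68.1, 59.6 and 76.9 CPM. The 4 genotypes overlapped. G12D differed from WT by 0.07 (SE 0.12) on the log2 scale (edgeR adjusted p = 0.860), E2-KO by -0.22 (SE 0.12, edgeR adjusted p = 0.397) and G12D/E2-KO by -0.09 (SE 0.12, edgeR adjusted p = 0.662). Within MEP, Nras was 0.90 (SE 0.26) higher on the log2 scale in G12D than in WT, which did not pass the test over all genes (edgeR adjusted p = 0.350).

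Hras, a close relative of Nras, was at 77.5, 71.3 and 69.5 CPM in WT and at 69.8, 77.9 and 53.1 CPM in E2-KO. G12D had 42.5, 62.1 and 40.0 CPM and G12D/E2-KO 46.5, 39.2 and 59.8 CPM, so all 6 libraries with the G12D allele lay below the 3 WT libraries. The log2 difference from WT was -0.57 (SE 0.18, edgeR adjusted p = 0.293) in G12D and -0.64 (SE 0.18, edgeR adjusted p = 0.0537) in G12D/E2-KO. The second of these lies just outside the threshold, and DESeq2 placed it inside (adjusted p = 0.0163). Hras was highest in erythroid cells (below), and EryP/early Ery cells made up 17.5% of WT cells on average, 16.8% of E2-KO, 9.44% of G12D and 8.47% of G12D/E2-KO cells. With the levels of the 7 classes weighted by the WT mix of UMIs, the G12D/E2-KO difference was -0.32 (limma adjusted p = 0.281). This setting also changes the test and leaves out the cells outside the 7 classes, so the part of the class mix alone was not tested.

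The R-Ras subfamily, Rras, Rras2 and Mras, shares effectors with the classical Ras proteins. Rras and Mras were rare, with 329 and 248 UMIs in all cells together. Rras was at 0.871 to 2.15 CPM in the 12 libraries, with overlap of all genotypes. Mras was at 0.512 to 1.06 CPM in WT, 1.03 to 1.76 in E2-KO, 0.455 to 0.761 in G12D and 1.04 to 2.10 in G12D/E2-KO. The Mras difference between G12D/E2-KO and WT was 0.92 on the log2 scale (SE 0.36, edgeR adjusted p = 0.135) and between G12D/E2-KO and G12D 1.14 (SE 0.37, edgeR adjusted p = 0.189), neither past the threshold.

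Rras2 encodes TC21, a Ras-like GTPase known for its role downstream of B and T cell receptors. Over all cells it was at 12.95, 4.10 and 2.30 CPM in WT, 14.7, 17.8 and 20.6 CPM in E2-KO, 2.48, 5.12 and 3.38 CPM for G12D and 5.34, 7.86 and 5.18 CPM in G12D/E2-KO. The 3 E2-KO libraries lay above all others, and within WT T1 stood apart from T2 and T3. E2-KO was 1.60 higher than WT on the log2 scale (SE 0.53, edgeR adjusted p = 0.194), and 2.59 higher without the WT T1 library (edgeR adjusted p = 0.00394). DESeq2 called it with all libraries (adjusted p = 0.0144). Between G12D/E2-KO and E2-KO the difference was -1.61 (SE 0.52, edgeR adjusted p = 0.154), and it also passed without WT T1 (edgeR adjusted p = 0.0344) and by DESeq2 (adjusted p = 0.0118).

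Of the 1824 Rras2 UMIs, 1052 (57.7%) lay in cells gated as B lymphoid, which held 3.85% of all UMIs. B lymphoid cells had 22.8 to 162 CPM of Rras2 (median 106, 11 libraries). Their share of cells was 10.38%, 5.84% and 0.879% in WT, 13.3%, 14.1% and 12.6% in E2-KO, 1.42%, 4.73% and 1.72% in G12D and 1.84%, 4.06% and 0.0382% in G12D/E2-KO. The 3 E2-KO libraries and WT T1 were on top both in this share and in Rras2 over all cells. Below them the orders differed: G12D/E2-KO T3, with the lowest share, had 5.18 CPM of Rras2 and WT T2, with the next highest share after WT T1, 4.10 CPM.

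With B lymphoid cells left out, a setting chosen after these shares were seen, Rras2 separated by Ezh2 genotype. It was at 2.59, 1.62 and 1.75 CPM in WT and 1.49, 1.71 and 2.16 CPM in G12D. It was at 5.78, 5.49 and 5.60 CPM in E2-KO libraries and 5.13, 5.57 and 5.18 CPM in those of G12D/E2-KO. The 6 libraries with the Ezh2 deletion did not overlap the other 6, and all 12 reached the limit of the filter on low counts (10 counts in a library of median size, in at least 2 libraries). E2-KO was 2.87-fold above WT (log2 1.52, SE 0.23, edgeR adjusted p = 0.00614), G12D/E2-KO 2.58-fold above WT (log2 1.37, SE 0.23, edgeR adjusted p = 0.00913) and G12D/E2-KO 2.79-fold above G12D (log2 1.48, SE 0.23, edgeR adjusted p = 0.00927). In these cells 1.58%, 6.66% and 1.61% of all genes passed in the 3 comparisons. G12D against WT (log2 -0.11, SE 0.24, edgeR adjusted p = 0.887), G12D/E2-KO against E2-KO (log2 -0.15, SE 0.21, edgeR adjusted p = 0.732) and the interaction (log2 -0.04, SE 0.33) did not pass. Each of the 3 called differences passed in 10 of 12 fits with a library left out. E2-KO against WT was lost without WT T2 or T3 (edgeR adjusted p up to 0.0616), G12D/E2-KO against WT without either WT T3 or G12D/E2-KO T2 (up to 0.0836) and G12D/E2-KO against G12D without G12D T1 or G12D/E2-KO T2 (up to 0.0891). With the tables as deposited the calls against WT held (edgeR adjusted p = 0.0175 and 0.0209), and that against G12D, whose T1 library then holds the shared cells too, was lost (log2 1.06, edgeR adjusted p = 0.286). Hras was also lower in G12D/E2-KO than in WT in these cells (log2 -0.68, SE 0.17, edgeR adjusted p = 0.0422), a call that held in 4 of 12 such fits and was lost without WT T1, WT T2, WT T3, E2-KO T1, E2-KO T2, G12D T1, G12D/E2-KO T1 or G12D/E2-KO T2 (adjusted p up to 0.209). With the 7 classes weighted by the WT mix of UMIs, which leaves out B lymphoid cells too, Rras2 was at 5.16, 4.58 and 6.32 CPM in E2-KO. G12D/E2-KO had 3.25, 2.89 and 2.05 CPM, WT 1.86, 1.16 and 1.47 CPM and G12D 0.859, 1.52 and 0.901 CPM. In that setting E2-KO against WT passed (limma) and G12D/E2-KO against WT did not. The part of the class mix in the Rras2 levels was not tested.

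**Figure D2:**
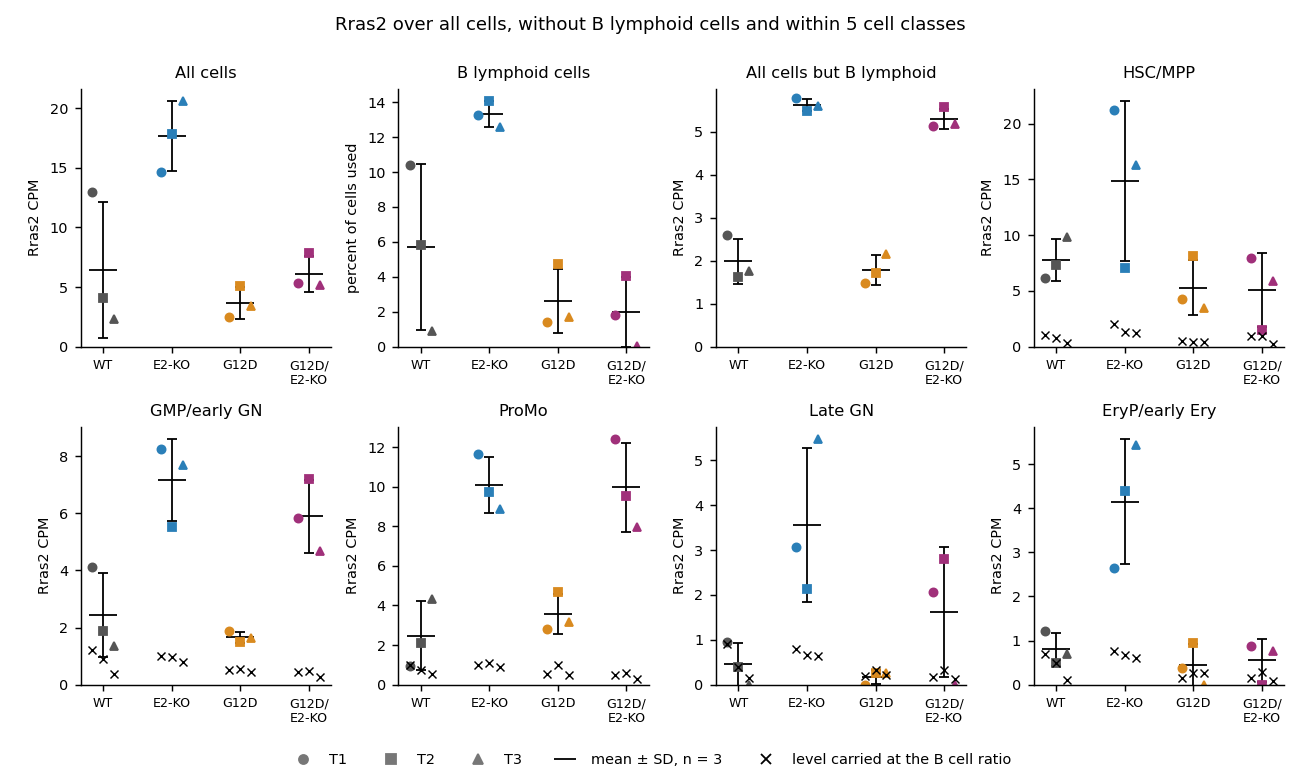
Rras2 CPM by genotype and time point over all cells, without B lymphoid cells and within 5 classes, with the percent of cells gated as B lymphoid in the second panel (mean and SD of 3 libraries). Crosses give the Rras2 level that the B cell marker UMIs of the class would carry at the ratio found in B lymphoid cells; without B lymphoid cells the E2-KO and G12D/E2-KO libraries lie at 5.13 to 5.78 CPM and the WT and G12D libraries at 1.49 to 2.59 CPM.

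Within the 7 classes, 7 of 246 member tests passed against 0.986% of all gene tests in these classes, and 38 had an unadjusted p under 0.05, against 9.46%. Of these 7 calls, 5 were of Rras2, all higher in a genotype with the Ezh2 deletion. Rras2 passed the filter on low counts there mainly through the genotypes in which it was high: the limit was reached by 3 E2-KO libraries alone in EryP/early Ery, by 3 E2-KO and 3 G12D/E2-KO libraries in ProMo, and by these and 1 WT library in GMP/early GN. A gene that enters in this way is chosen for being high in those genotypes, so the number of Rras2 calls is no support in itself. In HSC/MPP and Late GN, Rras2 entered through 2 E2-KO libraries alone and was not called. With no filter all 7 calls passed (edgeR adjusted p = 0.000101 to 0.0181).

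In GMP/early GN cells, which make the granules of neutrophils, Rras2 was at 4.11, 1.88 and 1.35 CPM in WT, 8.27, 5.53 and 7.71 CPM in E2-KO, 1.87, 1.48 and 1.62 CPM for G12D and 5.82, 7.22 and 4.66 CPM in G12D/E2-KO. The 6 libraries with the Ezh2 deletion lay above the other 6, from 17, 77, 17 and 78 UMIs in the 4 genotypes. E2-KO exceeded WT 3.10-fold (log2 1.63, SE 0.40, edgeR adjusted p = 0.0420, against 1.28% of all genes), a call that held in 4 of 12 fits with a library left out (without E2-KO T2 or any 1 of the G12D/E2-KO libraries) and was otherwise lost, with an adjusted p of up to 0.277. It was also lost without the time term (edgeR adjusted p = 0.0538), with the tables as deposited (0.0739) and with classes from clusters (0.0657). G12D/E2-KO exceeded G12D 3.35-fold (log2 1.74, SE 0.39, edgeR adjusted p = 0.0138, against 3.44% of all genes), and this held in 9 of 12 such fits; it was lost without G12D T1, G12D T2 or G12D/E2-KO T2 (up to 0.109), and with the tables as deposited (edgeR adjusted p = 0.162). G12D/E2-KO against WT was 1.40 on the log2 scale (SE 0.39, edgeR adjusted p = 0.0554).

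In ProMo cells, the precursors of monocytes, the same 6 libraries were on top. Rras2 was at 0.937, 2.13 and 4.35 CPM in WT and 2.84, 4.70 and 3.16 CPM in G12D, against 11.7, 9.73 and 8.87 CPM in the E2-KO libraries and 12.4, 9.51 and 7.98 CPM in G12D/E2-KO. G12D/E2-KO was 3.91-fold above WT (log2 1.97, SE 0.49, edgeR adjusted p = 0.0253, against 2.35% of all genes), lost without WT T1, WT T2, G12D/E2-KO T1 or G12D/E2-KO T2 (up to 0.145) and with classes from clusters (edgeR adjusted p = 0.106). It was 2.78-fold above G12D (SE 0.39 on the log2 scale, edgeR adjusted p = 0.0393, against 2.2% of all genes), lost without any 1 of the G12D libraries, G12D/E2-KO T1 or G12D/E2-KO T2 (up to 0.278), with the tables as deposited (edgeR adjusted p = 0.243) and with classes from clusters (0.0748). E2-KO against WT was 2.04 on the log2 scale and missed the threshold (SE 0.52, edgeR adjusted p = 0.0592). This comparison passed in 2 of 12 fits with a library left out, those without WT T3 or G12D/E2-KO T3 (up to 0.273 in the others). It also passed with no filter on low counts.

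In EryP/early Ery cells Rras2 was at 1.22, 0.495 and 0.705 CPM in WT and 2.63, 4.39 and 5.43 CPM in E2-KO, a 5.07-fold difference (log2 2.34, SE 0.52, edgeR adjusted p = 0.0177, against 2.77% of all genes). The call held in 8 of the 11 fits with a library left out in which the gene was tested and was lost without WT T2, WT T3 or E2-KO T3 (up to 0.203). As Rras2 entered the test with all libraries through the 3 E2-KO libraries alone, this count is no support in itself. G12D had 0.370, 0.949 and 0 CPM and G12D/E2-KO 0.878, 0 and 0.768 CPM, from 6 and 4 UMIs. In these early erythroid cells the 3 G12D/E2-KO libraries lay within the range of WT and G12D. The difference between G12D/E2-KO and E2-KO (log2 -2.87, SE 0.72, edgeR adjusted p = 0.132) and the interaction (log2 -2.52, SE 1.22, edgeR adjusted p = 1.0) did not pass over all genes. With no filter on low counts the first of these passed (edgeR adjusted p = 0.00160).

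Late GN cells gave few Rras2 UMIs, 5 for WT and 15 for E2-KO, against 2 for G12D and 21 for the double mutant, or up to 0.950, 5.47, 0.270 and 2.802 CPM in a library, and none of these differences passed (E2-KO against WT log2 2.90, SE 0.86, edgeR adjusted p = 0.0789). HSC/MPP cells had 6.12, 7.29 and 9.85 CPM in WT, 21.2, 7.07 and 16.3 CPM in E2-KO, 4.26, 8.14 and 3.48 CPM for G12D and 7.91, 1.47 and 5.90 CPM in G12D/E2-KO. E2-KO and WT overlapped there (log2 0.94, SE 0.56, edgeR adjusted p = 0.630).

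B cell RNA could reach other classes as free RNA or as doublets, so the 8 B cell markers were summed in each class. B lymphoid cells of all libraries together held 0.962 Rras2 UMIs per 100 UMIs of these markers, and this pooled ratio was used for every genotype. At that ratio, the markers in ProMo cells of E2-KO would carry 0.903 to 1.10 CPM of Rras2, where 8.87 to 11.7 CPM were measured. In GMP/early GN cells of G12D/E2-KO they would carry 0.265 to 0.462 CPM, where 4.66 to 7.22 CPM were measured. In EryP/early Ery cells of E2-KO the carried level was 0.605 to 0.759 CPM against 2.63 to 5.43 CPM measured. In WT the gap was smaller, with 0.528 to 0.991 CPM carried and 0.937 to 4.35 CPM measured in ProMo cells. There the carried level was above the measured one in WT T1 (0.991 against 0.937 CPM) and below it in WT T2 and T3. The 8 late GN markers, among them S100a8 and S100a9, summed to 5509 to 9548 CPM in ProMo cells of WT, 2330 to 4174 CPM in those of E2-KO and 5282 to 9919 CPM in G12D/E2-KO. The part of these transcripts in the Rras2 differences was not tested.

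None of the genes for GTPase-activating proteins passed over all cells. Nf1, which encodes neurofibromin, was at 7.36 to 8.85 CPM in WT, 8.85 to 9.37 in E2-KO, 7.17 to 9.68 in G12D and 7.85 to 11.7 in G12D/E2-KO. Rasa1, which encodes p120 RasGAP, was at 19.6 to 24.2, 21.2 to 25.0, 18.3 to 21.97 and 17.5 to 33.0 CPM in the same order. For both genes the genotypes overlapped and every mutant differed from WT by at most 0.15 on the log2 scale. Rasa3, whose protein also acts on Rap1, was at 8.25 to 12.7 CPM in WT and 11.7 to 15.7 CPM in G12D/E2-KO, 0.39 apart on the log2 scale (SE 0.18, edgeR adjusted p = 0.202).

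Rasa2, which encodes another activator of Ras GTPase activity, was at 22.2, 22.6 and 18.8 CPM in WT, 20.1, 20.1 and 19.9 CPM in E2-KO, 23.0, 21.0 and 28.9 CPM for G12D and 24.6, 33.4 and 42.5 CPM in G12D/E2-KO. All G12D/E2-KO libraries exceeded all WT and E2-KO libraries. The difference from WT was 0.57 on the log2 scale (SE 0.15, edgeR adjusted p = 0.0501, which is above the threshold) and from E2-KO 0.67 (SE 0.15, edgeR adjusted p = 0.0889). DESeq2 called both (adjusted p = 0.0192 and 0.00753). Against WT the edgeR p passed without E2-KO T3, G12D T2, G12D T3 or G12D/E2-KO T1 and rose to 0.260 with another library left out. Of the classes in which Rasa2 was highest, GMP/early GN made up 10.9% of WT and 20.0% of G12D/E2-KO cells on average and Late GN 31.9% and 24.1%. With the class mix fixed at WT the difference was 0.41 (limma adjusted p = 0.215).

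**Figure D3:**
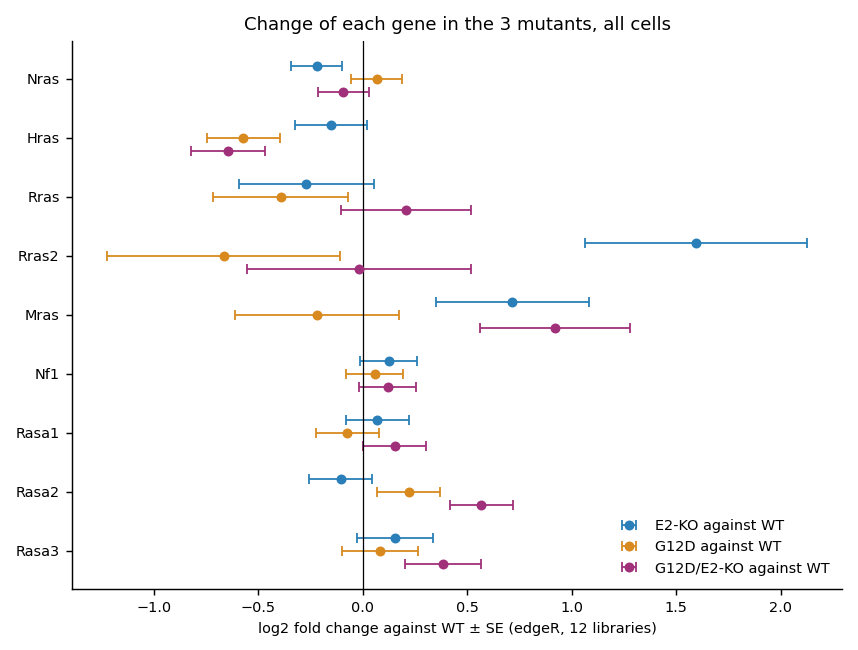
Log2 fold change and SE of each of the 9 genes in the 3 mutants against WT, over all cells (edgeR, 12 libraries); the vertical line marks no change. Rras2 in E2-KO has the largest value at 1.60 with an SE of 0.53, while Nf1 and Rasa1 stay within 0.15 of 0 and none of the 27 values passed the test over all genes.

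The 2 calls within a class that were not of Rras2 were of Rasa2 and Hras in G12D/E2-KO. In ProMo cells Rasa2 was at 18.7, 18.1 and 16.5 CPM in WT, 13.2, 8.99 and 24.1 CPM in E2-KO, 12.8, 12.7 and 16.9 CPM for G12D and 17.0, 25.9 and 47.1 CPM in G12D/E2-KO. The highest value was that of G12D/E2-KO T3, and the lowest G12D/E2-KO library lay just above the highest G12D library. G12D/E2-KO exceeded G12D 1.85-fold (log2 0.89, SE 0.24, edgeR adjusted p = 0.0439, against 2.2% of all genes). This call held in 6 of 12 fits with a library left out and was lost without WT T2, any 1 of the G12D libraries, G12D/E2-KO T2 or G12D/E2-KO T3 (up to 0.279), without the time term (edgeR adjusted p = 0.156) and with the tables as deposited (0.125).

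In Late Ery cells Hras was at 145, 79.9 and 114 CPM in WT, 87.7, 105 and 65.5 CPM in E2-KO, 108, 92.8 and 99.1 CPM for G12D and 82.0, 52.0 and 33.5 CPM in G12D/E2-KO. G12D/E2-KO and WT overlapped slightly in CPM, and the fit, which also takes up time and library composition, put Hras 0.99 lower on the log2 scale in G12D/E2-KO (SE 0.23, edgeR adjusted p = 0.0221, against 1.1% of all genes). The call held in 7 of 12 fits with a library left out and was lost without WT T1, WT T3 or any 1 of the G12D/E2-KO libraries (up to 0.194). It was also lost without the time term (edgeR adjusted p = 0.0574) and with classes from clusters (0.0931). Hemoglobin and late granulocyte genes held 39.9% to 60.2% of the UMIs in this class. In EryP/early Ery cells, where those genes held at most 1.15%, Hras was at 121 to 144 CPM in WT and 78.2 to 123 CPM in G12D/E2-KO (log2 -0.35, SE 0.15, edgeR adjusted p = 0.188).

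**Figure D4:**
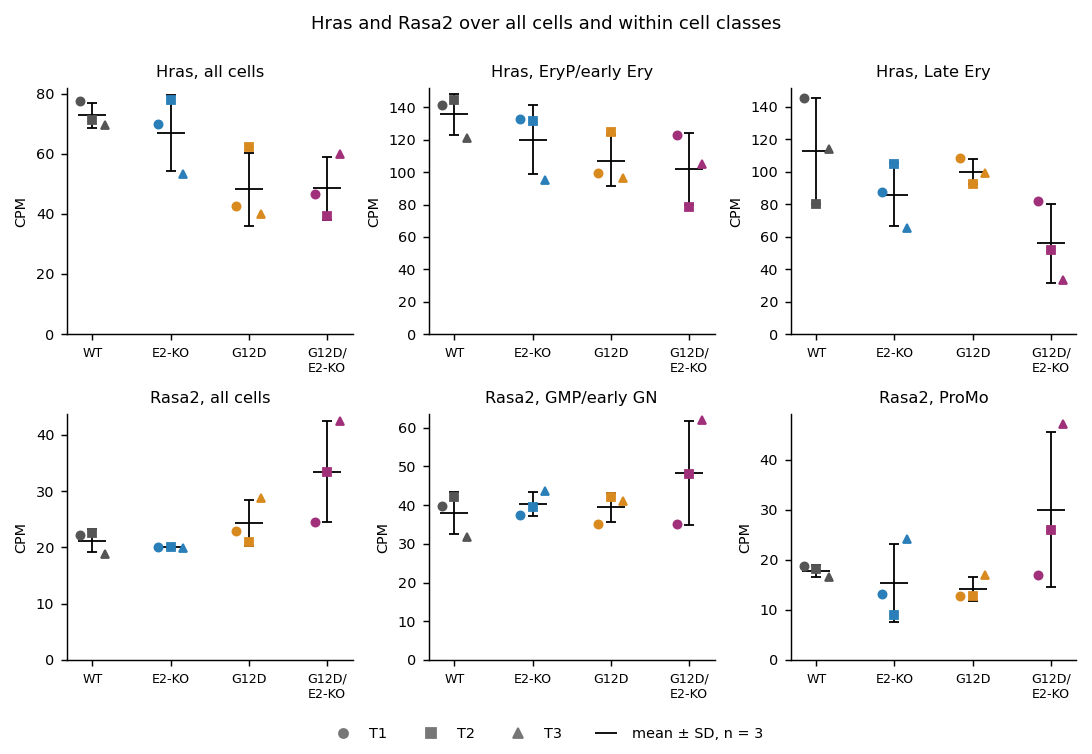
CPM of Hras (top) and Rasa2 (bottom) by genotype and time point, over all cells and within 2 classes each, with the mean and SD of 3 libraries. Hras in Late Ery cells lies at 33.5 to 82.0 CPM in G12D/E2-KO and 79.9 to 145 CPM in WT, and Rasa2 in ProMo cells reaches 47.1 CPM in G12D/E2-KO T3.

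The 9 genes also differed in where they were expressed. Levels of each gene were ordered over the 7 classes (mean ± SD of CPM, n = 12 libraries), and neighbours in the order were compared within libraries by an exact two-sided sign-flip permutation test, whose smallest p is 0.000488, adjusted over 54 neighbour pairs. Of these, 17 differed. As 3′ UMIs count molecules, CPM carries no gene length.

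Nras was broadly expressed. It was at 103 ± 32.6 CPM in MEP, 90.3 ± 23.1 in HSC/MPP and 78.9 ± 11.2 in EryP/early Ery, and neighbours among these did not differ beyond their spread. From EryP/early Ery it fell to 68.8 ± 6.96 CPM in ProMo (adjusted exact p = 0.00527), and from GMP/early GN (64.5 ± 8.69) to Late GN (51.3 ± 8.34) and on to Late Ery (27.4 ± 9.10) it was lower in 12 of 12 libraries at both steps (adjusted exact p = 0.00330 for each).

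Hras had an erythroid pattern, at 116 ± 20.8 CPM in EryP/early Ery and 88.7 ± 29.6 in Late Ery, followed by 44.2 ± 10.7 in ProMo. Both steps passed (adjusted exact p = 0.0211 and 0.0113). EryP/early Ery cells held 48.3% of all Hras UMIs and 23.5% of all UMIs. Levels in ProMo, HSC/MPP (42.3 ± 9.86), MEP (41.8 ± 12.7) and GMP/early GN (32.3 ± 8.16) were not separated step by step, and Late GN was lowest (20.9 ± 5.31).

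Rras was at 7.14 ± 3.70 CPM in HSC/MPP and at 3.73 ± 3.03 in MEP, a step that did not pass (adjusted exact p = 0.179), and at 1.41 or less in the other classes. Rras2 was at 8.25 ± 5.49 in HSC/MPP, 6.52 ± 3.95 in ProMo, 5.91 ± 3.84 in MEP and 4.29 ± 2.62 in GMP/early GN, with no step among them passing, and dropped to 1.49 ± 1.75 in EryP/early Ery in 12 of 12 libraries (adjusted exact p = 0.00330). These means pool genotypes that differ in Rras2. Mras was highest of the 7 classes in GMP/early GN (2.59 ± 1.12), ProMo (2.19 ± 1.53) and HSC/MPP (1.82 ± 1.79), with no step among them passing, and was at 0.164 CPM or less in the other 4 (HSC/MPP to Late GN, adjusted exact p = 0.0586). It gave 0 of 3818990 UMIs in MEP, which allows up to 0.786 CPM.

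Among the GTPase-activating genes, Nf1 was at 15.6 ± 8.27 CPM in MEP, 12.2 ± 1.83 in EryP/early Ery and 11.8 ± 5.10 in HSC/MPP, which did not differ, and fell from GMP/early GN (7.37 ± 1.97) to Late GN (4.31 ± 1.13, adjusted exact p = 0.00879). Rasa1 was at 32.7 ± 7.29 in MEP and 31.9 ± 7.68 in HSC/MPP, then lower in EryP/early Ery (24.8 ± 3.93, adjusted exact p = 0.0330). It dropped from 22.9 ± 4.29 in GMP/early GN to 10.8 ± 3.77 in Late GN in 12 of 12 libraries.

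Rasa2 was highest in the granulocyte classes, at 41.5 ± 7.76 CPM in GMP/early GN and 39.8 ± 12.9 in Late GN, a step that did not pass (adjusted exact p = 0.471). In 12 of 12 libraries it was higher in Late GN than in HSC/MPP (19.4 ± 5.40, adjusted exact p = 0.00330). Rasa3 was at 26.4 ± 6.13 in HSC/MPP, 23.6 ± 6.71 in MEP and 17.3 ± 4.11 in ProMo, then lower in GMP/early GN (11.6 ± 2.16, adjusted exact p = 0.00879) and Late GN (7.09 ± 2.08, adjusted exact p = 0.00330). Rasa2 and Rasa3, whose proteins are related, had different orders in the same cells. B lymphoid cells, not among the 7 classes, had 15.8 to 48.9 CPM of Rasa3 (median 34.2, 11 libraries).

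**Figure D5:**
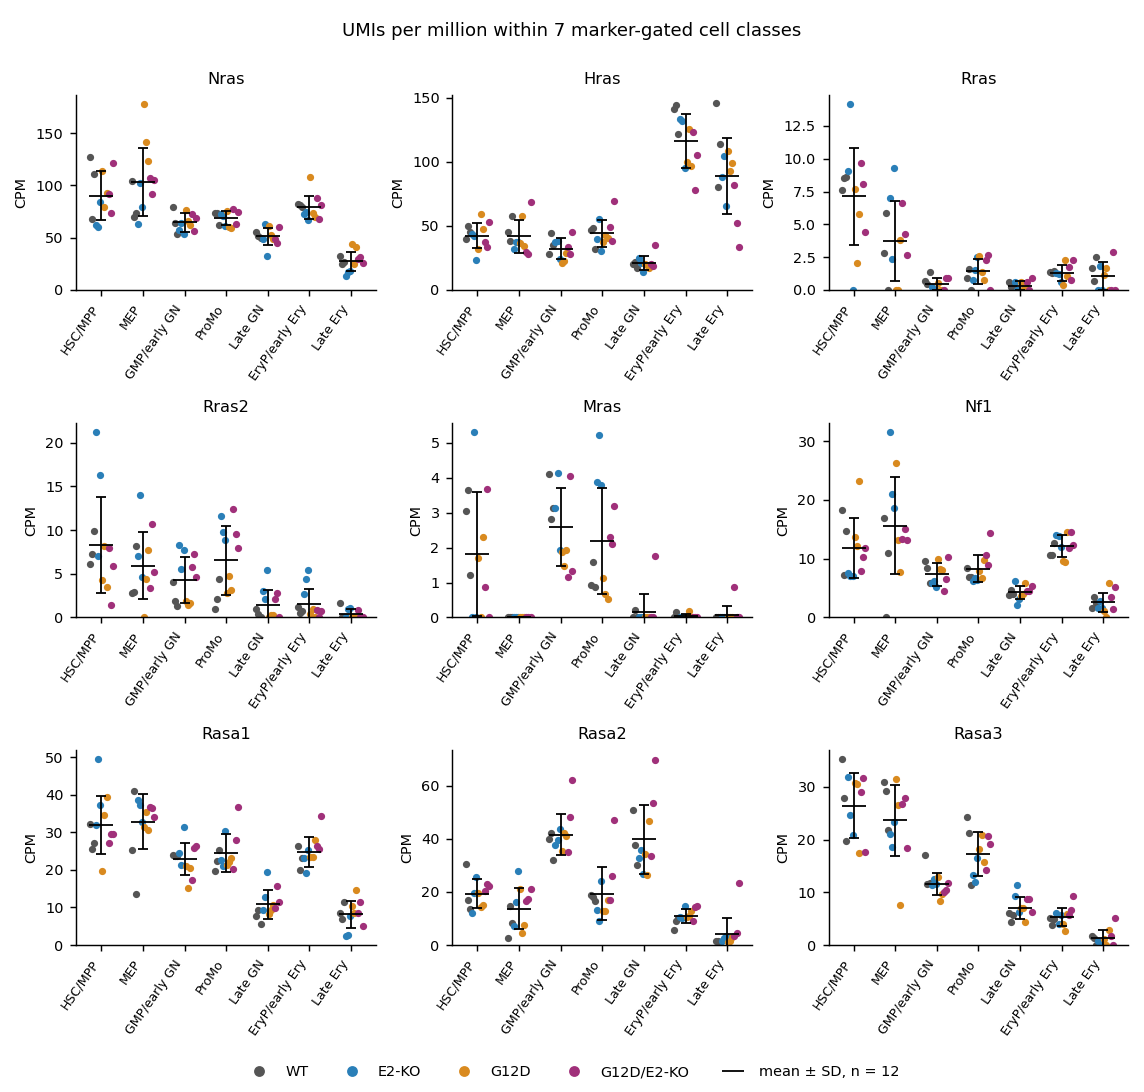
CPM of the 9 genes in 7 marker-gated classes, 1 point per library coloured by genotype, with the mean and SD of 12 libraries. Among these 7 classes Hras peaks at 116 CPM in EryP/early Ery, Rasa2 at 41.5 CPM in GMP/early GN and Rasa3 at 26.4 CPM in HSC/MPP.

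Since abundant transcripts lower the CPM of all other genes, the order was repeated without hemoglobin and late granulocyte genes, which held 32.0% to 48.3% of UMIs in Late GN. Hras was then highest in Late Ery (183 ± 56.5 CPM) and above EryP/early Ery (117 ± 21.1, adjusted exact p = 0.0146), and Rasa2 highest in Late GN (68.2 ± 18.7) and above GMP/early GN (43.2 ± 7.82, adjusted exact p = 0.00879). Nras in Late GN became 88.8 ± 14.0 CPM; leaving out genes of this share raises the CPM of all others by construction. In this setting 10 of 54 neighbour pairs differed.

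The genes with the most similar profile over the 7 class means (Pearson r of log2(CPM + 1), 6848 genes searched, given as a description) were Use1 (r = 0.995) and Csk (0.993), a kinase that inhibits Src kinases, for Nras. For Hras they were E2f4 (0.991), a cell cycle regulator, and Nudt9 (0.988), for Rras Hmces (0.987) and Crebbp (0.980), for Rras2 Panx1 (0.997) and Eml4 (0.994) and for Mras Mcpt8 (0.990), a basophil protease, and B4galt4 (0.960). For Nf1 they were Ankib1 (0.996) and Cdk13 (0.994), for Rasa1 Npepl1 and Lsm10 (0.998 each), for Rasa2 Gyg (0.994), which starts glycogen chains, and Apmap (0.985), and for Rasa3 Zmiz1 (0.995) and Ist1 (0.992). Basophil and mast cells, which Mcpt8 marks, are not among the 7 classes. They held 0.403% of all Mras UMIs (1 UMI) and 1.38% of all UMIs.

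Other genes of the Ras cycle were taken from 5 lists of 40 genes, of which 37 were tested over all cells. None fell in any comparison. Of the 8 exchange factors, which load Ras with GTP, 6 were tested and 0 rose in any of the 8 comparisons. The same count of 0 was found for the 10 genes listed under lipid modification and trafficking (all tested), and for the related small GTPases (6 of 7 tested). Of 9 further GTPase activators and Nf1 partners 1 rose, and of 6 adaptors upstream of the exchange factors 2 rose. Of the 37 genes, 1 passed in E2-KO against WT, 3 in G12D/E2-KO against WT and 1 in G12D/E2-KO against G12D, where 1.65%, 5.71% and 1.42% of all genes did.

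The activator was Rasal2, a relative of the Rasa genes, at 1.31, 0.719 and 1.28 CPM in WT, 3.53, 3.01 and 5.14 CPM in E2-KO, 1.06, 0.797 and 1.25 CPM for G12D and 2.02, 3.34 and 4.28 CPM in G12D/E2-KO. As with Rras2 outside B lymphoid cells, the 6 libraries with the Ezh2 deletion lay above the other 6. Rasal2 was named for passing the test on these same values, so this order is no further support. It was 3.48-fold higher in E2-KO than in WT (log2 1.80, SE 0.28, edgeR adjusted p = 0.0105), 2.79-fold higher in G12D/E2-KO than in WT (edgeR adjusted p = 0.0197) and 2.85-fold higher in G12D/E2-KO than in G12D (edgeR adjusted p = 0.0276). These calls held in 8, 9 and 7 of 12 fits with a library left out: the first was lost without WT T2, WT T3, E2-KO T1 or E2-KO T3 (up to 0.0819), the second without WT T2, WT T3 or G12D/E2-KO T2 (up to 0.125), and the third without E2-KO T2, any 1 of the G12D libraries or G12D/E2-KO T2 (up to 0.136). The third was also lost with the tables as deposited (edgeR adjusted p = 0.338), and both calls in G12D/E2-KO with only the genotypes compared in the fit. Its list had a median log2 change of 0.20 in E2-KO against 0.00 for all genes.

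The adaptors were Gab2, a docking protein for Shp2 and phosphatidylinositol 3-kinase, and Cbl, a ubiquitin ligase that removes activated receptors, both higher in G12D/E2-KO than in WT. Gab2 was at 2.97 to 3.68 CPM in WT and 5.12 to 7.65 CPM in G12D/E2-KO (log2 0.82, SE 0.19, edgeR adjusted p = 0.0365). Cbl was at 49.9 to 53.2 CPM in WT and 66.1 to 84.3 CPM in G12D/E2-KO (log2 0.50, SE 0.12, edgeR adjusted p = 0.0440). Both groups were separate for either gene. As the genes were named for passing the test on these same values, this separation is no further support. The calls held in 5 (Gab2) and 4 (Cbl) of 12 fits with a library left out; both were lost without any 1 of the WT libraries, E2-KO T1, G12D T1, G12D/E2-KO T1 or G12D/E2-KO T2, and Cbl also without E2-KO T2 (up to 0.200 and 0.215). Neither passed without the time term or with only the genotypes compared, and Cbl was lost with the tables as deposited (edgeR adjusted p = 0.0521) and with the class mix fixed. The single mutants had 3.99 to 5.94 CPM of Gab2 in E2-KO and 3.45 to 5.28 CPM in G12D, and 48.0 to 54.5 CPM of Cbl in E2-KO and 51.5 to 69.9 CPM in G12D. G12D/E2-KO overlapped both single mutants for Gab2 and G12D for Cbl.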

How the data were processed

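Single-cell 3′ RNA-seq of c-Kit+ bone marrow cells gave 12 tables of UMI counts. The counts were made and deposited by the authors, who aligned reads to mm10 with Cell Ranger and removed cells with a high mitochondrial share and Scrublet doublets; no further doublet caller was run. All sample columns were used (0 were not).

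Cells found in 2 tables were counted once. Each cell was scored on 13 marker lists (mean scaled log value over WT cells, scaled to 10000.0 UMIs per cell) and gated at a score of 0.5 and a margin of 0.25 over the next list; 1293 cells lay within 0.1 of a limit, and 86.4% of gated cells had the same class by clustering (scanpy 1.11.5, Python 3.11.15). Since classes rest on rebuilt gates, they may differ from the study's.

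Counts were summed per library, or per library and class, and tested with edgeR 4.0.16 (R 4.3.3, TMM, filterByExpr, robust quasi-likelihood, two-sided, 6 residual degrees of freedom, Benjamini-Hochberg, 0.05), with the 3 time points as replicates of a genotype. P-values therefore measure the spread between libraries that is left after genotype and time point. Differences between mice and libraries and a change over time particular to a genotype are mixed in it. Replicate numbers are the labelled time points and time was a factor. Same-time libraries had a median correlation of deviations of 0.160 (18 pairs, -0.25 to 0.47, 11 over 0.1, 8856 genes). Other pairs had -0.10, a value tied to the first, since deviations were taken from the mean of each genotype. DESeq2 1.42.0 was an alternative, as were limma 3.58.1 on class-weighted log2 values, RLE factors, no filter, other gates, and leaving out libraries. Levels across classes used log2(CPM + 1) and sign-flip tests (scipy 1.17.1). A count of 0 was given the limit of 3 counts; limits cover counting error only. The edgeR fit of G12D/E2-KO against WT over all cells was also run on simulated counts with known changes, and the outcome is not reported here.

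Members and lists were chosen with earlier results of these data known. Named were all 9 genes, list genes past the threshold over all cells, the 2 genes most like each member over the classes, and Ezh2.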

Additional observations from a re-analysis of the deposited data

How the results depend on the processing

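Over all cells, where no member passed for a mutant against WT, 1 passed without the replicate block (Hras in G12D/E2-KO), 1 with RLE factors and 1 without hemoglobin and late granulocyte genes (Rasa2 in G12D/E2-KO), 1 with an Xist term (Hras in G12D/E2-KO), 1 with the class mix fixed at WT (Rras2 in E2-KO), 3 with DESeq2, 3 without B lymphoid cells, and 0 to 2 with a library left out. For G12D/E2-KO against a single mutant, where none passed, DESeq2 called 2, leaving out B lymphoid cells 1, and leaving out a library 0 to 1. The interaction and the time comparisons stayed at 0 in all settings run, with 0 to 0 for a library left out. The 7 calls within classes became 4 without the replicate block (lost: Rras2 in E2-KO GMP/early GN, edgeR adjusted p = 0.0538; Rasa2 in ProMo; Hras in Late Ery, edgeR adjusted p = 0.0574), 3 with cells as deposited, 4 with classes from clusters (3 of the 7, and Rras2 in G12D/E2-KO against WT in GMP/early GN, edgeR adjusted p = 0.0432) and 2 to 9, not all among the 7, with a library left out. The genes called in all moved within classes too. In GMP/early GN, 133 for E2-KO against WT became 72 without the replicate block, 72 as deposited and 110 with classes from clusters. In ProMo, 193 for G12D/E2-KO against G12D became 97, 41 and 253 in the same order. With no filter on low counts, an alternative chosen after seeing the data, 12 of 372 member tests passed, the 7 and 5 more of Rras2. The share of all genes was not pooled over these unfiltered fits, so the count of 12 has no background here. With cells as deposited, Rras2 in G12D/E2-KO against G12D had an edgeR adjusted p of 0.162 in GMP/early GN and 0.243 in ProMo, where the G12D T1 library then shares most of its cells with G12D/E2-KO T1. The 17 neighbour steps of the class levels became 10 without hemoglobin and late granulocyte genes; WT libraries alone gave another top class for 5 members and were not tested, since the sign-flip test cannot pass the threshold with 3 libraries. Rras2 in G12D/E2-KO against WT over all cells (log2 -0.02) changed sign with cells as deposited (0.0108), without B lymphoid cells (1.37), with an Xist term (0.0272), with only the genotypes compared (0.18), with the class mix fixed (0.58) and with libraries left out (-0.45 to 1.001, the highest without WT T1); apart from the value without B lymphoid cells none of these passed. The replicate block changed no other call among the members. The other 300 member comparisons passed in no setting but that with no filter within classes (Rras2 in EryP/early Ery, G12D/E2-KO against E2-KO), and 146 of them changed sign in some other setting. The genes called in all moved as well over these settings: 217 for E2-KO against WT became 66 to 665, 14 for G12D 4 to 143, 750 for G12D/E2-KO 91 (without WT T3) to 1416 (Xist term), 186 for G12D/E2-KO against G12D 3 to 354, 12 for G12D/E2-KO against E2-KO 0 to 670, 12 for the interaction 0 to 55 and 0 for T3 against T1 up to 276 (Xist term). The cause of these changes was not tested.

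Depth limits the rare genes most: Rras and Mras gave 329 and 248 UMIs in all, the Rras2 calls within classes rest on 10 to 78 UMIs per genotype, and MEP allowed a test of 3 members. With 1 library per genotype and time point, differences between mice and days cannot be told apart from the spread, and the recombinase differs between WT and all mutants. By Xist, sex goes with T3 in WT, E2-KO and G12D, but not in G12D/E2-KO. It is therefore mixed with the comparison of T3 with T1, and at T3 with that of G12D/E2-KO with the other genotypes.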

Other observations

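In classes with too few cells for a test, levels were given as values. Some of these gates matched the clusters less well than those of the 7 classes: 57.8% of megakaryocytic, 42.7% of basophil and mast and 26.9% of macrophage cells had the same class by clustering. B lymphoid cells matched at 93.5%. No WT cluster was named dendritic or T/NK, so the match of 0.0% for these cells was fixed in advance and says nothing about their gates. Megakaryocytic cells (11 libraries with at least 20 cells) had 33.2 to 88.0 CPM of Rasa1 (median 56.3), above the mean of 32.7 CPM in MEP, and 5.99 to 105 CPM of Rasa3 (median 35.2), with the highest value in G12D/E2-KO T2. Rasa3 is known from mouse mutants for its role in platelets. Basophil and mast cells (10 libraries) had 4.71 to 32.8 CPM of Rasa2: 5.89 to 10.99 CPM in the 3 E2-KO libraries (3, 1 and 1 UMIs), 23.3 to 32.8 CPM in the 3 G12D libraries (6, 4 and 8 UMIs) and 17.0 to 20.9 CPM in the 3 G12D/E2-KO libraries (6, 7 and 14 UMIs), with 4.71 CPM (1 UMI) in the 1 WT library that had enough cells. Dendritic cells reached 20 cells in 2 libraries, G12D/E2-KO T1 and T2, where Mras was at 19.8 and 6.71 CPM (15 and 1 UMIs) and Rras at 10.6 and 13.4 CPM (8 and 2 UMIs); dendritic cells held 7.66% of all Mras UMIs and 0.595% of all UMIs. T/NK cells did so in G12D/E2-KO T2 alone, where Rras2 was at 72.1 CPM (7 UMIs), and macrophages in WT T1 and T2, where Rras2 was at 0 and 5.38 CPM (0 and 1 UMI).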
